A study of Gallus gallus with 2 samples.

Results

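The genes described here encode substrate receptors of cullin-RING ubiquitin ligases other than cereblon. They were taken from the gene tables by symbol, as every gene named DCAF, KLHL, FBXO, FBXL or FBXW followed by a number. Such a symbol was carried by 87 of 16754 genes. Of these 87, the 67 that reached 1 FPKM in at least 1 library were kept, and the same filter kept 10914 genes in all. FPKM divides the fragments of a gene by its transcript length and by the size of the library. The thalidomide library came from chick (Gallus gallus) limb buds exposed to thalidomide at 40 µg/ml, and the vehicle library from limb buds given 5% DMSO. All tissue was from Hamburger-Hamilton stage 22 embryos (day 4), cut into small pieces and incubated for 4 h at 37 °C, and the labels do not say whether the thalidomide pieces also received DMSO or how many embryos were pooled. There was 1 library per treatment, so no difference has a replicate check or a test, and every value describes these 2 libraries.

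A cullin-RING ligase is built on a cullin scaffold that holds a RING subunit at one end and an exchangeable substrate receptor at the other. DCAF proteins dock through DDB1 onto CUL4, as cereblon does, while KLHL proteins bind CUL3 directly through a BTB domain and F-box proteins dock through SKP1 onto CUL1. F-box proteins are named by their substrate-binding part, with WD40 repeats in FBXW, leucine-rich repeats in FBXL and other domains in FBXO. Thalidomide acts on cereblon, and the receptors below are the ones that share the rest of the machinery with it or use the parallel CUL3 and CUL1 systems. Substrate binding and protein amounts were not measured.

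The FPKM values summed to 384280 in the thalidomide library and 426632 in the vehicle library. Mitochondrially encoded transcripts made up 11.3% of the thalidomide sum and 8.94% of the vehicle sum. Limb mesenchyme markers were present, with PRRX1 at 185 FPKM with thalidomide and 217 with vehicle, TBX5 at 26.4 and 22.5, TBX4 at 18.5 and 16.4, and HOXD13 at 222 and 264. Hoxa11 and HOXA13 were listed at 0 in both. The Hoxa11 locus (chromosome 2, 32876474 to 33182997) contains that of HOXA13 (32893988 to 32897161), so these values need not mean absent transcripts. Whether their reads were left unassigned was not tested. Of the 10 mesenchyme markers kept, TBX5 and TBX4 were the only 2 with log2 ratios of thalidomide over vehicle above 0. The other 8 were below (median of the 10 −0.24), lowest in TWIST1 (−0.50), MSX1 (−0.45) and LHX2 (−0.40). Of all genes kept, 41.0% were above 0. The 12 mesenchyme markers summed to 794 FPKM with thalidomide and 951 with vehicle. The 4 haemoglobin genes matched as blood markers, of 8 haemoglobin rows, summed to 545 and 411 FPKM. Endothelial markers (5 genes) summed to 28.2 and 33.9 FPKM, ectodermal markers (6 genes) to 87.4 and 104, neuronal markers (6 genes) to 75.9 and 88.2, and muscle markers (9 genes) to 80.1 and 95.2. Ratios were above 0 in 1 of 4 kept endothelial genes (KDR) and 1 of 5 kept ectodermal genes (TP63). The same held for 2 of 9 muscle genes (MYOG and PAX3). The neuronal genes went both ways: TUBB3 had 58.6 and 71.5 FPKM and NEFL 6.17 and 4.87 FPKM, and 3 of the 5 kept had ratios above 0 (median 0.05). These sums and ratios are on the deposited scale, and rescaling to the vehicle FPKM total multiplies the thalidomide values by 1.11. In bulk tissue, fewer cells of a type and less RNA per cell cannot be told apart, and the part of these marker differences in the receptor values was not tested.

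Receptor transcripts were mostly of low to middle abundance, and their order was almost the same in both libraries. FBXO45, a receptor of neural development that works with the ligase MYCBP2, was the most abundant, at 49.7 FPKM in the thalidomide library and 52.7 FPKM in the vehicle library. DCAF13, a nucleolar protein of ribosomal RNA processing, followed with 31.1 FPKM with thalidomide and 34.7 FPKM with vehicle. A mean of at least 20 FPKM was reached by 3 receptors, at least 10 FPKM by 26 and at least 5 FPKM by 45. Across the 67 genes, Spearman's rho between the FPKM of both libraries was 0.981, a description over genes that share both libraries. The summed FPKM of the receptors was 638 with thalidomide and 642 with vehicle. By family, the sums were 96.5 and 100.02 FPKM for DCAF, 184 and 183 FPKM for KLHL, 229.1 and 228.9 FPKM for FBXO, 60.3 and 56.9 FPKM for FBXL, and 67.9 and 73.1 FPKM for FBXW. The receptors thus had nearly equal totals on the deposited scale, where all genes summed to 384280 FPKM with thalidomide and 426632 with vehicle. Rescaling to the vehicle FPKM total multiplies the thalidomide values by 1.11, so the near equality rests on the scale.

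**Figure D1:**
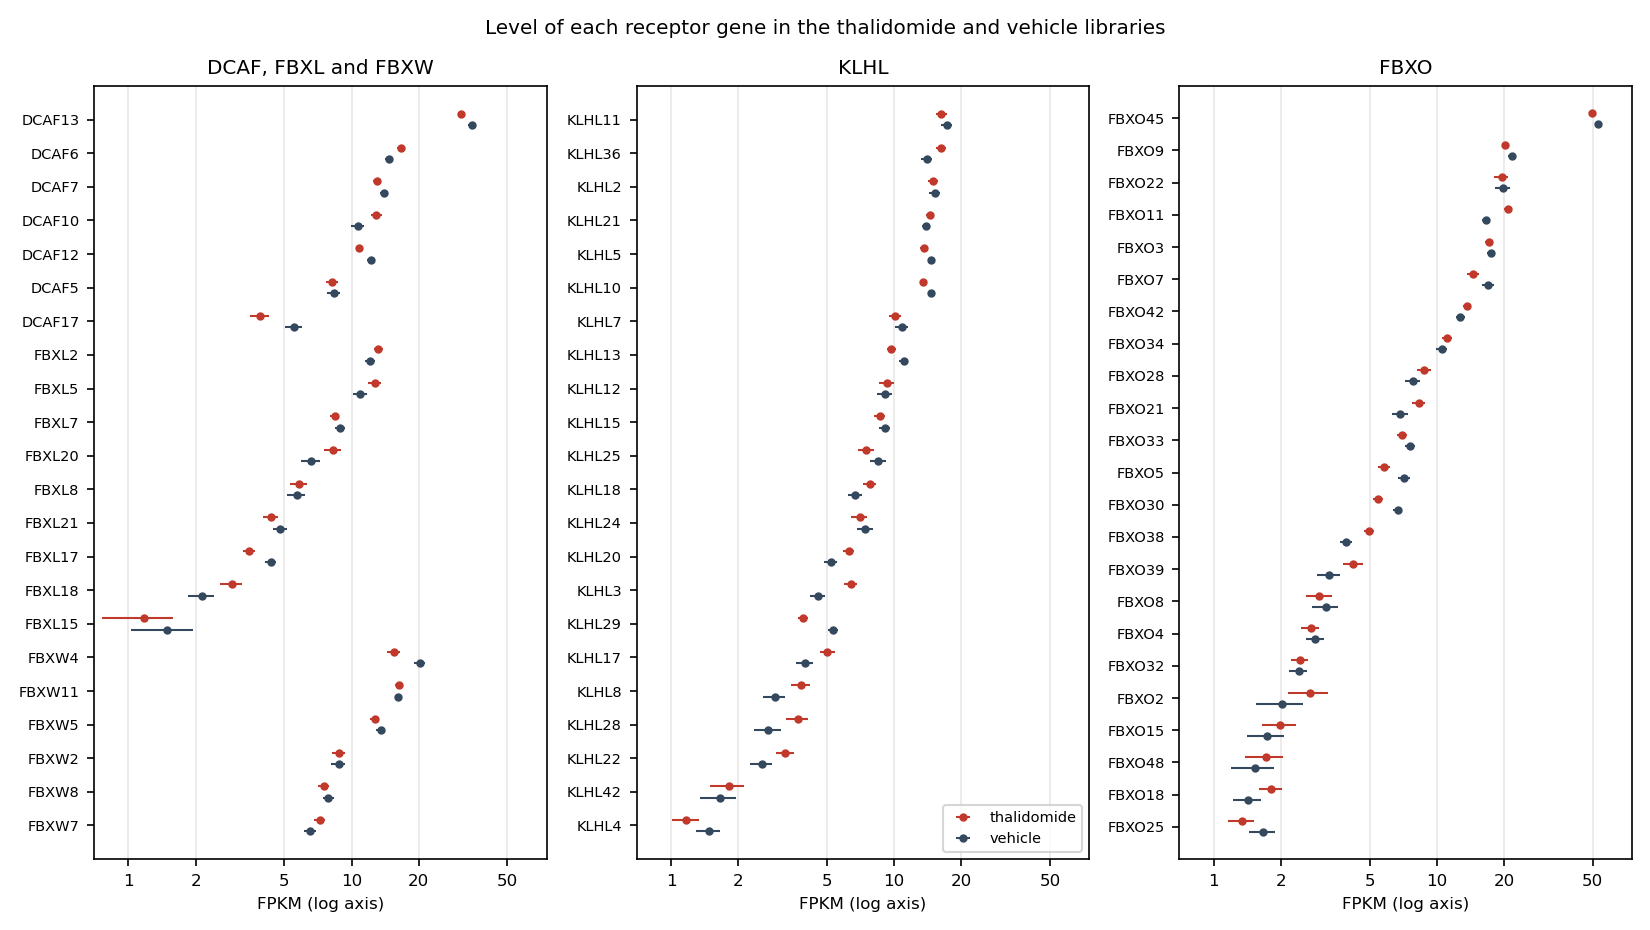
Level of each of the 67 receptor genes, in FPKM on a log axis, in the thalidomide library (red, upper point) and the vehicle library (dark, lower point), by family and in order of mean level. Bars are the deposited confidence limits, which cover counting and fragment assignment within a library; FBXO45 lies near 50 FPKM in both libraries and FBXL15 has the widest bars.

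Each receptor was compared by its log2 ratio of thalidomide over vehicle, with 1 added to each FPKM, which understates the ratio of low genes. A ± is an error of 1 SD propagated from the deposited limits of both libraries, which were read as lying 2 SD from the value. It covers counting and assignment only. The ratios were small: 0 of the 67 receptors differed by 1.5-fold in either direction, where 0.953% of all genes kept were that much higher and 0.971% that much lower. Past a step of 25%, taken as the same factor in both directions (a log2 ratio of 0.322), 2 receptors were higher (KLHL3 and KLHL28) where 6.14% of all genes were, and 3 were lower (DCAF17, KLHL29 and FBXW4) where 8.71% of all genes were. After centring on the median of all genes the split was 10 higher and 1 lower, beside 8.67% and 5.71% of all genes. After rescaling to equal FPKM totals it was 17 higher and 0 lower, beside 15.04% and 2.64%, so these counts rest on the scale. The other 62 receptors (92.5%) lay within that step, as did 85.1% of all genes. The spread of the ratio, as an SD scaled from the median absolute deviation, was 0.21 over the receptors and 0.22 over all genes.

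The median log2 ratio of the receptors was −0.02, with quartiles of −0.10 and 0.19, and that of all genes was −0.05, with quartiles of −0.19 and 0.11. Ratios were above 0 in 33 receptors (49.3%), where 41% of all genes were above 0, and below 0 in 34. For 29 receptors (43.3%) the deposited intervals stood apart, near the 42.4% of all genes. Of these, 17 were higher with thalidomide (25.4% of receptors, against 15.5% of all genes) and 12 were lower (17.9%, against 26.9%). Ratios also varied with abundance. Among the 6047 genes with a mean between 2.16 and 16.97 FPKM, the middle 80% of receptor abundance, intervals were apart with higher values in 19.4% and with lower values in 16.7%, and the median ratio was −0.004. Of these 6047 genes, 49.2% had a ratio above 0, near the share of the receptors. With the thalidomide library rescaled to the vehicle FPKM total, the median of all genes moved by 0.13. The split became 26 higher and 4 lower of 68 receptors, with KLHL14 then past the filter, beside 32.0% and 10.3% of genes. The receptor median lay 0.03 above that of all genes as deposited and 0.04 above it after rescaling. That rescaling turned 20 of the 67 ratios from below to above 0, FBXO45 and KLHL10 among them, and 24 turned when mitochondrial and haemoglobin genes were left out of the totals, DCAF12, DCAF13 and KLHL13 included. The 4 still lower with intervals apart after the first rescaling were DCAF17, KLHL29, FBXW4 and FBXO30.

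**Figure D2:**
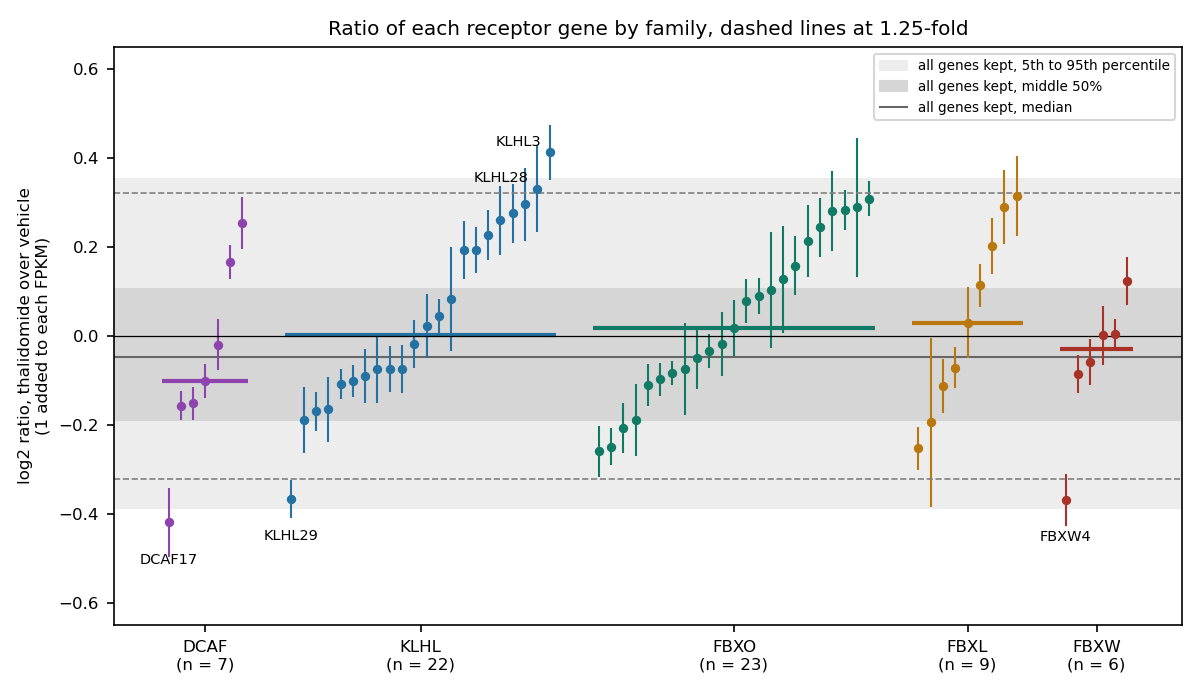
Log2 ratio of thalidomide over vehicle, with 1 added to each FPKM, for each receptor gene in rising order within its family. Bars are the propagated error of 1 SD and thick lines family medians. Grey bands give all genes kept. The named genes are the 5 beyond the dashed lines of the 25% step, from DCAF17 at −0.42 to KLHL3 at 0.41.

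Abundance went with the ratio among receptors as well. The median log2 ratio was 0.09 for the 22 receptors under 5 FPKM, 0.001 for the 19 between 5 and 10 FPKM, and −0.05 for the 26 at 10 FPKM or more. Over all genes, 1693 of the 3387 under 5 FPKM had a ratio above 0, and the medians of the higher bands were 0.004 and −0.11. Spearman's rho of mean FPKM with the ratio was −0.17 over the 67 receptors and −0.26 over 10879 genes. The number of fragments behind 1 FPKM, a stand-in for transcript length, had a rho of −0.23 with the ratio over the receptors and 0.24 over all genes. All points of such a relation share the same 2 libraries.

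**Figure D3:**
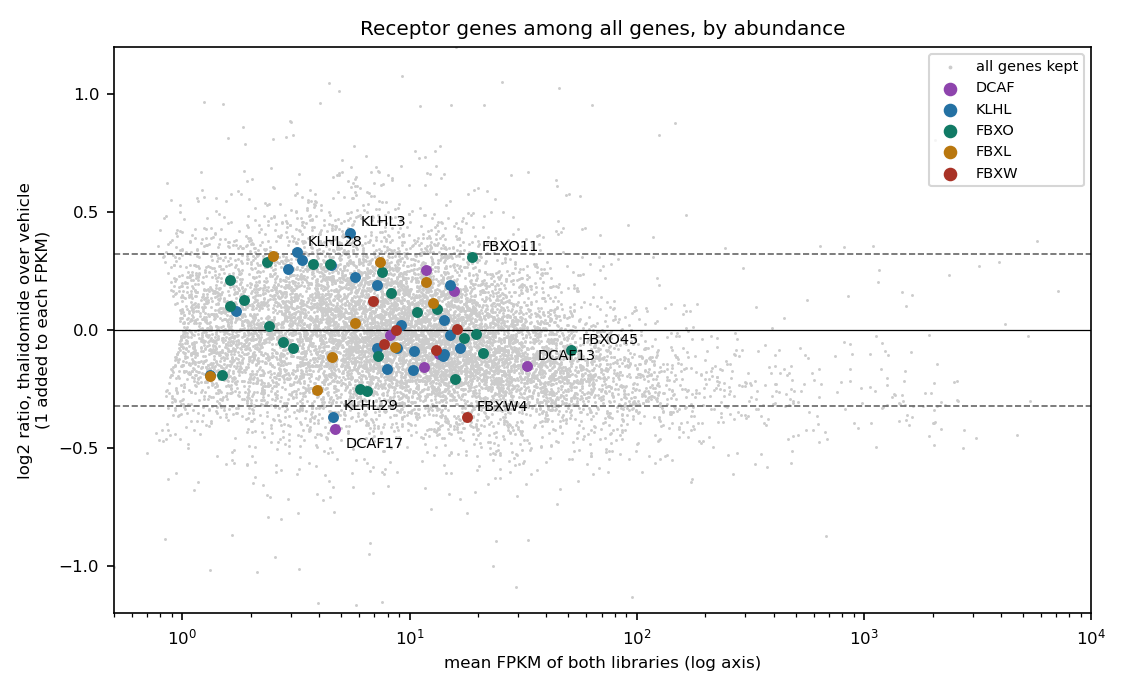
Log2 ratio of thalidomide over vehicle, with 1 added to each FPKM, against mean FPKM on a log axis; coloured points are the receptors by family and grey points all genes kept, of which 46 lie beyond the axes. Dashed lines mark the 25% step. The receptors fill the middle of the cloud, and the most abundant of them, FBXO45 and DCAF13, lie below 0.

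The CUL4 receptors of the DCAF family had 7 members, all kept, and a median log2 ratio of −0.10, which was above 0 after rescaling. DCAF17, mutated in human Woodhouse-Sakati syndrome, had 3.88 FPKM in the thalidomide library (interval 3.497 to 4.26) and 5.52 FPKM in the vehicle library (5.04 to 6.01). It was 1.34-fold lower with thalidomide on the FPKM + 1 scale (log2 ratio −0.42 ± 0.08), the lowest of all 67 receptors, and 3.69% of all genes had a lower ratio. The gene (ENSGALG00000009558) lies on chromosome 7 from 17519610 to 17538308 in galGal4, the assembly named in the submitters' processing notes. Its values rest on about 416 fragments with thalidomide and 520 with vehicle, numbers inferred from the deposited limits, which come out too low where the assignment of fragments was uncertain.

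Other DCAF genes differed less and in both directions. DCAF10 had 12.9 FPKM with thalidomide and 10.7 FPKM with vehicle (log2 ratio 0.25 ± 0.06). DCAF6, a coactivator of nuclear receptors, had 16.6 FPKM with thalidomide and 14.7 FPKM with vehicle (0.17 ± 0.04). Intervals of both genes were apart, with thalidomide higher, as in 15.5% of all genes and 19.4% of genes of receptor abundance. DCAF13 (−0.15 ± 0.04) and DCAF12, which recognises acidic C-termini of human proteins and had 10.8 FPKM with thalidomide and 12.2 FPKM with vehicle (−0.16 ± 0.03), were lower with intervals apart. With DCAF17, 3 of the 7 DCAF genes were lower with intervals apart. That held for 26.9% of all genes and 16.7% of genes of receptor abundance. DCAF7, a WD40 scaffold of kinases needed for jaw formation in zebrafish, had 12.96 FPKM with thalidomide and 13.98 FPKM with vehicle (−0.10 ± 0.04). DCAF5, which in human cells recognises faulty chromatin remodelling complexes, had 8.18 and 8.30 FPKM (−0.02 ± 0.06). Intervals of DCAF7 and DCAF5 overlapped. For comparison, CRBN itself, the CUL4 receptor that binds thalidomide, had 5.13 FPKM with thalidomide and 4.46 FPKM with vehicle (0.17 ± 0.08), with overlapping intervals.

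The CUL3 receptors of the KLHL family had 33 members, of which 22 were kept. Of the 22, 11 had ratios above 0 and 11 below, where 41.0% of all genes and 49.2% of genes of receptor abundance were above 0. Their median of 0.001 was −0.07 when only genes with a mean of at least 5 FPKM were taken and was 0.05 after centring. KLHL3, which in the mammalian kidney directs WNK kinases to degradation, had 6.40 FPKM in the thalidomide library (5.98 to 6.81) and 4.56 FPKM in the vehicle library (4.19 to 4.92). It was 1.33-fold higher with thalidomide (0.41 ± 0.06), the highest of the 67 receptors, and 3.12% of all genes had a higher ratio. The gene (ENSGALG00000006226) lies on chromosome 13 from 13818620 to 13851076, and its values rest on about 955 fragments with thalidomide and 634 with vehicle. KLHL2, the other KLHL receptor of WNK kinases, was more abundant and nearly equal, at 14.96 FPKM with thalidomide and 15.2 FPKM with vehicle (−0.02 ± 0.05).

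KLHL28 (ENSGALG00000012489, chromosome 5 from 58742902 to 58750216) was the only other receptor higher with thalidomide past the 25% step. It had 3.70 FPKM in the thalidomide library and 2.73 FPKM in the vehicle library (0.33 ± 0.10), from about 304 and 206 fragments. KLHL8 had 3.81 FPKM with thalidomide and 2.92 FPKM with vehicle (0.30 ± 0.08). KLHL17, an actin-binding protein of neurons in mammals, had 5.02 and 3.98 FPKM (0.28 ± 0.07), and its locus overlaps NOC2L. KLHL22, a receptor for the mitotic kinase PLK1 in human cells, had 3.26 and 2.55 FPKM (0.26 ± 0.08). KLHL20, which targets the death-associated kinase DAPK1 and PML, had 6.26 and 5.20 FPKM (0.23 ± 0.06). KLHL36 had 16.2 and 14.0 FPKM (0.19 ± 0.05) and KLHL18, a regulator of Aurora A at mitotic entry, had 7.78 and 6.68 FPKM (0.19 ± 0.06). With KLHL3, these were the 8 KLHL genes, of 22 kept, whose intervals were apart with higher values in the thalidomide library. That held for 15.5% of all genes and 19.4% of genes of receptor abundance, shares that change with the scale of the libraries.

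In the opposite direction, 3 KLHL genes were lower with intervals apart, where 26.9% of all genes and 16.7% of genes of receptor abundance were. KLHL29 (ENSGALG00000016495, chromosome 3 from 103284324 to 103640841) had 3.91 FPKM in the thalidomide library (3.70 to 4.13) and 5.33 FPKM in the vehicle library (5.08 to 5.59), a 1.29-fold lower value with thalidomide (−0.37 ± 0.04) from about 1355 and 1739 fragments. KLHL13 had 9.72 FPKM with thalidomide and 11.1 FPKM with vehicle (−0.17 ± 0.04). In human cells it works with KLHL9 on Aurora B, and the RefSeq table lists the chick symbol KLHL13 as a synonym of KLHL9. KLHL10, a spermatid protein needed for male fertility in mice, had 13.5 and 14.6 FPKM (−0.11 ± 0.03). KLHL4, the kept receptor with the lowest mean, had 1.17 and 1.475 FPKM (−0.19 ± 0.07), with overlapping intervals.

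The other 10 kept KLHL genes had overlapping intervals and ratios from −0.16 to 0.08. The most abundant KLHL gene, KLHL11, had 16.3 FPKM with thalidomide and 17.2 FPKM with vehicle (−0.07 ± 0.05). KLHL21, another Aurora B receptor, had 14.4 and 13.9 FPKM (0.04 ± 0.04), and KLHL5 had 13.6 and 14.7 FPKM (−0.10 ± 0.04). KLHL12, which acts on Dishevelled and on the coat of large collagen-carrying vesicles in mammalian cells, had 9.24 and 9.09 FPKM (0.02 ± 0.07). KLHL15, a receptor for a regulatory subunit of the phosphatase PP2A, had 8.60 and 9.10 FPKM (−0.07 ± 0.05), and KLHL7 had 10.1 and 10.8 FPKM (−0.09 ± 0.06). KLHL25, which targets the translation inhibitor 4E-BP1, had 7.48 and 8.503 FPKM (−0.16 ± 0.07). KLHL24, a regulator of keratin filaments in skin, had 6.99 and 7.42 FPKM (−0.07 ± 0.08), and KLHL42, which targets the microtubule-severing protein katanin, had 1.81 and 1.65 FPKM (0.08 ± 0.12).

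Of the CUL1 receptors, the FBXO family had 27 members and 23 were kept. Of the 23, 12 had ratios above 0 and 11 below, where 41.0% of all genes and 49.2% of genes of receptor abundance were above 0. The median ratio of 0.02 was −0.01 without the abundance filter and −0.03 at a mean of 5 FPKM or more. All 23 lay within the 25% step. FBXO11, whose mouse mutant has ear and palate defects and which targets BCL6, had 20.9 FPKM in the thalidomide library (20.1 to 21.7) and 16.7 FPKM in the vehicle library (15.9 to 17.4). At 0.31 ± 0.04 it had the highest ratio among the 26 receptors with a mean of 10 FPKM or more, from about 2805 and 2042 fragments. FBXO38, a receptor for PD-1 in T cells, had 4.99 and 3.92 FPKM (0.28 ± 0.04), FBXO39 had 4.22 and 3.30 FPKM (0.28 ± 0.09) and FBXO21 had 8.31 and 6.86 FPKM (0.24 ± 0.07). These 4 had intervals apart with higher values in the thalidomide library, as had 15.5% of all genes and 19.4% of genes of receptor abundance. FBXO2, which binds sugar-bearing proteins, had 2.70 and 2.03 FPKM (0.29 ± 0.16), but with about 100.1 and 69.6 fragments its intervals overlapped.

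The lowest FBXO ratios were those of FBXO5, FBXO30 and FBXO7. FBXO5, known as EMI1, inhibits the anaphase-promoting complex during S phase and G2, and had 5.81 FPKM with thalidomide (5.43 to 6.19) and 7.15 FPKM with vehicle (6.70 to 7.60), a log2 ratio of −0.26 ± 0.06. FBXO30, a muscle-mass regulator in mice, had 5.46 and 6.68 FPKM (−0.25 ± 0.04). FBXO7, mutated in a human parkinsonism, had 14.6 and 16.98 FPKM (−0.21 ± 0.06) and overlaps BPIFC. With FBXO45 (−0.08 ± 0.03), these were the 4 FBXO genes lower with intervals apart. That held for 26.9% of all genes and 16.7% of genes of receptor abundance.

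The other 14 FBXO genes besides FBXO2 had overlapping intervals. FBXO9 had 20.3 FPKM with thalidomide and 21.8 FPKM with vehicle (−0.10 ± 0.04). FBXO22, which targets methylated p53 and a histone demethylase in human cells, had 19.5 and 19.8 FPKM (−0.02 ± 0.07), and FBXO3 had 17.1 and 17.5 FPKM (−0.03 ± 0.04). FBXO42 (0.09 ± 0.04), FBXO34 (0.08 ± 0.05) and FBXO28 (0.16 ± 0.07) had ratios above 0, and FBXO33 (−0.11 ± 0.05) and FBXO8 (−0.07 ± 0.10) ratios below 0. Among the least abundant were FBXO25, with 1.34 and 1.66 FPKM (−0.19 ± 0.08), FBXO48 with 1.72 and 1.53 FPKM (0.10 ± 0.13) and FBXO15, a stem cell marker in mice, with 1.99 and 1.74 FPKM (0.13 ± 0.12).

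The FBXL family had 14 members and 9 were kept. Their median ratio of 0.03 was −0.04 without the abundance filter. FBXL18 had 2.90 FPKM with thalidomide and 2.13 FPKM with vehicle (0.32 ± 0.09), and FBXL20, which regulates synaptic release in mice, had 8.28 and 6.59 FPKM (0.29 ± 0.08). FBXL5, the iron-sensing receptor that directs the iron regulatory protein IREB2 to degradation, had 12.7 FPKM with thalidomide (11.9 to 13.5) and 10.9 FPKM with vehicle (10.2 to 11.7), a log2 ratio of 0.20 ± 0.06. These 3 were higher with intervals apart, as were 15.5% of all genes and 19.4% of genes of receptor abundance. The FBXL5 locus overlaps BST1. FBXL17, which clears wrongly paired BTB proteins and so acts on the KLHL family, had 3.49 and 4.34 FPKM (−0.25 ± 0.05). It was the only FBXL gene lower with intervals apart, where 26.9% of all genes and 16.7% of genes of receptor abundance were. Its locus overlaps an unnamed gene and the element uc_338.

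Among the FBXL genes with overlapping intervals, FBXL2 was the most abundant, at 13.2 FPKM with thalidomide and 12.1 FPKM with vehicle (0.11 ± 0.05). FBXL7 had 8.39 and 8.87 FPKM (−0.07 ± 0.05) and FBXL8 had 5.82 and 5.68 FPKM (0.03 ± 0.08). FBXL21, a receptor for the cryptochrome clock proteins, had 4.34 and 4.78 FPKM (−0.11 ± 0.06). FBXL15, a receptor for SMURF1 in BMP signalling, had 1.17 and 1.484 FPKM (−0.19 ± 0.19). It rested on about 32.3 fragments with thalidomide and 42.8 with vehicle, the fewest of any kept receptor, and its locus overlaps CUEDC2. Its intervals overlapped, so no difference was detectable at this precision.

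All 6 members of the FBXW family were kept, and FBXW4 stood at the low end. FBXW4, also called dactylin, lies in the region altered in the mouse limb mutant dactylaplasia and duplicated in a human split hand and foot malformation. It had 15.4 FPKM in the thalidomide library (14.5 to 16.4) and 20.2 FPKM in the vehicle library (19.1 to 21.4), a 1.29-fold lower value with thalidomide (−0.37 ± 0.06) from about 981 and 1247 fragments. The gene (ENSGALG00000007715) lies on chromosome 6 from 22279695 to 22338315. FGF8, a growth factor made by the limb bud's apical ridge, lies 20013 bases away at 22253323 to 22259681 with no annotated locus between, and was listed at 0.765 FPKM with thalidomide and 0.775 FPKM with vehicle. On the other side of FBXW4, BTRC, a receptor described below, lies at 22379629 to 22460065. It had 6.58 FPKM with thalidomide and 4.56 FPKM with vehicle.

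The other FBXW genes were nearly equal in both libraries. FBXW11, a receptor for beta-catenin and the NF-kB inhibitor, had 16.3 FPKM with thalidomide and 16.2 FPKM with vehicle (0.004 ± 0.03). Its paralog BTRC, which the symbol rule does not take, had 6.58 and 4.56 FPKM (0.45 ± 0.08), with intervals apart. FBXW7, which targets cyclin E, MYC, JUN and the Notch intracellular domain, had 7.22 and 6.54 FPKM (0.12 ± 0.05). FBXW5, a regulator of centrosome duplication, had 12.7 and 13.5 FPKM (−0.09 ± 0.04), FBXW8, which is known to assemble with CUL7, had 7.52 and 7.87 FPKM (−0.06 ± 0.05), and FBXW2 had 8.75 and 8.74 FPKM (0.001 ± 0.07). The family median of −0.03 was 0.02 after centring and above 0 after rescaling.

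Receptors were also grouped by the process they are known for. As deposited, 41.0% of all genes kept and 49.2% of genes of receptor abundance had a ratio above 0. Intervals were apart with higher values in 15.5% of all genes kept and with lower values in 26.9%. Among genes of receptor abundance these shares were 19.4% and 16.7%. Of 9 kept receptors of cell cycle and DNA replication, 6 had ratios above 0 and 3 below (median 0.04). KLHL22 and KLHL18 were higher with intervals apart, and FBXO5 and KLHL13 lower. FBXO18, the DNA helicase FBH1, had 1.81 FPKM with thalidomide and 1.43 FPKM with vehicle (0.21 ± 0.08), and FBXO4, a receptor for cyclin D1, had 2.72 and 2.85 FPKM (−0.05 ± 0.07). Of 7 receptors of signalling and morphogenesis, 5 had ratios above 0 (median 0.02), with KLHL3 and KLHL20 higher and intervals apart. Only 1 of the 4 muscle receptors in the files passed the filter: FBXO32, the muscle-wasting ligase subunit atrogin-1, with 2.44 and 2.4 FPKM (0.02 ± 0.06). KLHL40, which stabilises thin filament proteins, had 0.665 FPKM with thalidomide and 0.617 FPKM with vehicle, KLHL31 had 0.142 and 0.263 FPKM, and FBXO40 had 0.0947 and 0.0407 FPKM. Of the muscle transcription factors, MYOD1 had 17.1 FPKM with thalidomide and 20.2 FPKM with vehicle, MYOG had 7.76 and 7.15 FPKM, MYF6 had 6.001 and 6.66 FPKM and MYF5 had 1.42 and 1.70 FPKM.

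The 20 receptors left out were 11 KLHL, 5 FBXL and 4 FBXO genes, each under 1 FPKM in both libraries, and none of the 67 kept reached 1 FPKM in only 1 library. Their intervals overlapped in every case, from at most 98.5 fragments per library. Ratios ran from −0.28 for FBXL12, with about 1 and 2 fragments, to 0.39 for FBXL22, with about 18.9 and 7 fragments. Nearest below the threshold were KLHL14, with 0.998 FPKM with thalidomide and 0.984 FPKM with vehicle, and FBXL4, a mitophagy regulator, with 0.698 and 0.868 FPKM. Nearest above were KLHL4 and FBXL15. KLHL34 was listed at 0 in both libraries. Genes known from other tissues were among them: KLHL1, a brain gene, had 0.0539 and 0.0929 FPKM, and KLHL6, a B-cell gene, had 0.245 and 0.214 FPKM.

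Receptor genes that lie within 100 kb of each other formed 5 pairs. KLHL10 and KLHL11 lie 1277 bases apart on chromosome 27 with no annotated locus between, and had similar levels and ratios of −0.11 and −0.07. FBXO21 (0.24) and FBXW8 (−0.06) lie 4579 bases apart on chromosome 15 with 1 annotated locus between. Rescaling to the vehicle FPKM total raises both ratios, that of FBXW8 to 0.08. KLHL6 and KLHL24 lie 14802 bases apart on chromosome 9 with no locus between, at 0.245 and 6.99 FPKM with thalidomide. FBXO32 and KLHL38 lie 28145 bases apart on chromosome 2, at 2.44 and 0.0661 FPKM with thalidomide and ratios of 0.02 and 0.03. FBXO47, at 0.0155 FPKM with thalidomide, and FBXL20 (0.29) lie 42711 bases apart on chromosome 27 with 3 loci between. Loci of 10 kept receptors overlapped another annotated locus (DCAF5, KLHL2, KLHL13, KLHL17, FBXO7, FBXL5, FBXL8, FBXL15, FBXL17 and FBXW5), and because strand specificity is not given in the sources used here, reads of overlapping genes may have been shared.

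The rest of the machinery was set beside the receptors. Among all genes kept, 41.0% had a ratio above 0, and among those at 10 FPKM or more 30.7% had. Cullin scaffolds and RING subunits had 6 of 8 ratios below 0 and a median of −0.14, which was −0.002 and 0.03 under the rescalings of the thalidomide library. None of the 8 was higher with intervals apart and 4 were lower (CUL4B, CUL3, RNF7 and RBX1), where 26.9% of all genes were lower, and 2237 of the 5192 genes at 10 FPKM or more. RBX1, the RING subunit, had 74.9 FPKM with thalidomide and 109.7 FPKM with vehicle (−0.54 ± 0.05), and RNF7, its CUL5 counterpart, had 23.0 and 28.3 FPKM (−0.29 ± 0.04). CUL3 had 26.7 and 31.0 FPKM (−0.21 ± 0.02) and CUL4B had 18.9 and 21.5 FPKM (−0.18 ± 0.02). CUL4A (6.14 and 5.38 FPKM, 0.16 ± 0.07), CUL5 (0.10 ± 0.05) and CUL1 (16.5 and 17.2 FPKM, −0.06 ± 0.06) had overlapping intervals.

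The linkers had the lowest median of the lists, at −0.26 (−0.12 and −0.08 under the rescalings). SKP1, the linker of F-box proteins, had 152 FPKM in the thalidomide library and 202 FPKM in the vehicle library (−0.41 ± 0.02). DDB1, the linker of DCAF proteins and cereblon, had 25.4 and 30.7 FPKM (−0.26 ± 0.03), and TCEB1, the elongin C linker of CUL2 and CUL5, had 17.2 and 20.8 FPKM (−0.27 ± 0.04). DDA1, a small DDB1-associated subunit, was higher at 39.0 and 31.8 FPKM (0.28 ± 0.03). The 4 linkers summed to 233 FPKM with thalidomide and 285 FPKM with vehicle, whereas the receptor sums were nearly equal on that deposited scale. Several of these subunits are abundant, and genes of 10 FPKM or more had a median ratio of −0.11.

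Regulators of the ligases went both ways, where 41.0% of all genes and 30.7% of genes at 10 FPKM or more had a ratio above 0. Of 13 genes of neddylation and cullin control, 5 had ratios above 0 and 8 below. Their median of −0.01 rests on the setting: it was 0.04 after centring, 0.11 after rescaling to the vehicle total and −0.14 at a mean of 5 FPKM or more. CAND2, an exchange factor, had 6.38 FPKM with thalidomide and 4.34 FPKM with vehicle (0.47 ± 0.06), and SENP8, the NEDD8 protease, had 6.29 and 4.52 FPKM (0.40 ± 0.09). UBE2M, the NEDD8-conjugating enzyme, had 54.7 and 71.2 FPKM (−0.38 ± 0.06), and DCUN1D5 had 21.4 and 25.2 FPKM (−0.22 ± 0.08). The COP9 signalosome, which removes NEDD8 from cullins, had 3 of 9 ratios above 0 (median −0.04, 0.01 after centring), from COPS9 (listed as MYEOV2) at −0.39 ± 0.08 and COPS8 at −0.18 ± 0.06 to COPS7B at 0.04 ± 0.07 and GPS1 at 0.14 ± 0.04. Ubiquitin-conjugating partners had 2 of 7 above 0 (median −0.06, above 0 after rescaling), from UBE2D3 (−0.25 ± 0.03) and ARIH1 (−0.14 ± 0.04) to UBE2R2 (0.03 ± 0.05) and ARIH2 (0.22 ± 0.06).

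Receptors of the same ligases that carry other symbols, and receptors of CUL2 and CUL5 ligases, were taken from lists. Of all genes kept, 41.0% had a ratio above 0, as had 49.2% of genes of receptor abundance. After rescaling to the vehicle FPKM total, 65.4% of all genes did, so the sign counts below rest on the scale. CUL4 receptors under other symbols had 12 of 17 ratios above 0 (median 0.07). BRWD3, a bromodomain and WD40 protein, had 6.72 FPKM with thalidomide and 3.98 FPKM with vehicle (0.63 ± 0.04), AMBRA1, the cyclin D receptor, had 11.9 and 8.90 FPKM (0.38 ± 0.03), and at the low end RBBP7 had 7.62 and 9.47 FPKM (−0.28 ± 0.07) and DTL, the replication-coupled receptor of CDT1, had 1.97 and 2.58 FPKM (−0.27 ± 0.08). CUL3 receptors under other symbols had 12 of 20 above 0 (median 0.02), from KCTD5 (−0.24 ± 0.08) and KBTBD8 (−0.19 ± 0.08) to KCTD10 (0.29 ± 0.05). CUL1 receptors under other symbols had 4 of 5 above 0 (median 0.14), from SKP2, the receptor of p27, at −0.16 ± 0.05 and CCNF at 0.04 ± 0.04 to the demethylase KDM2A at 0.31 ± 0.04 and BTRC. CUL2 and CUL5 receptors had 17 of 32 above 0 (median 0.004, −0.001 at a mean of 5 FPKM or more), from ASB1 (−0.40 ± 0.10) and WSB2 (−0.18 ± 0.03) to ASB13 (0.46 ± 0.14) and KLHDC10 (0.49 ± 0.09).

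**Figure D4:**
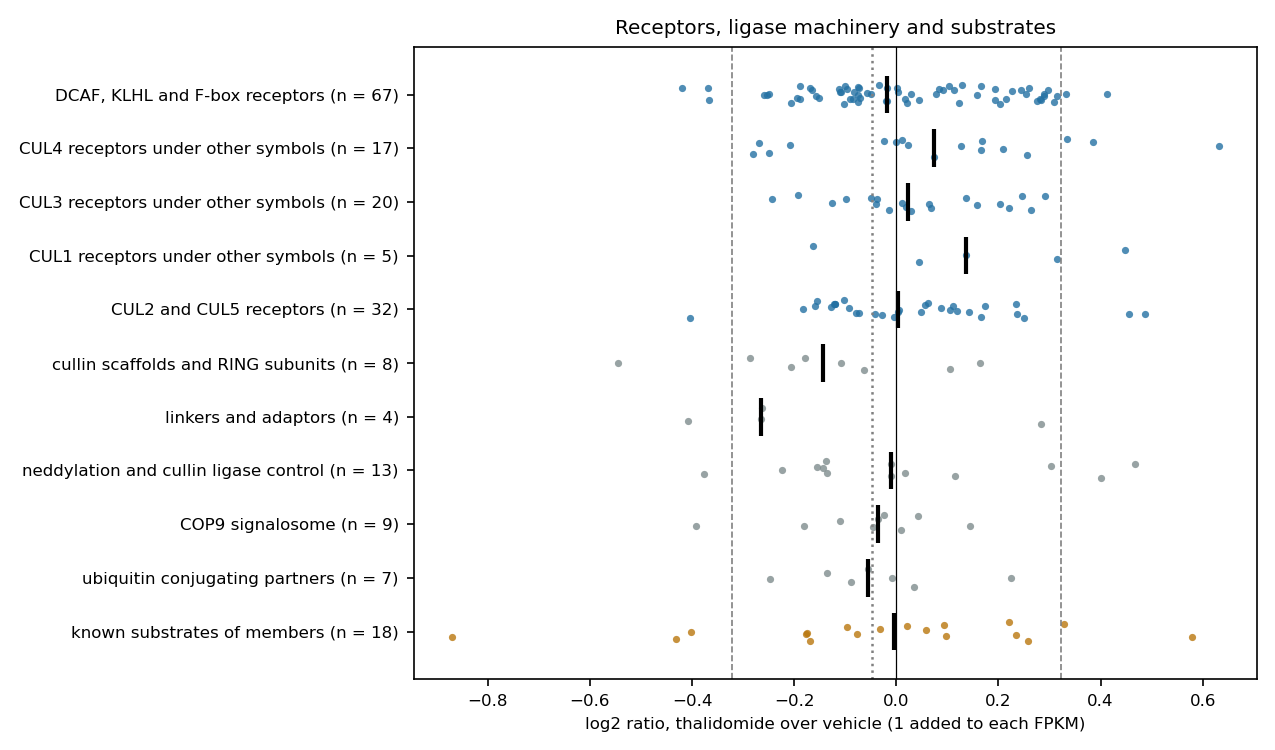
Log2 ratio of thalidomide over vehicle, with 1 added to each FPKM, for the receptors (blue), the ligase machinery (grey) and known substrates (orange); each point is a gene and thick bars are list medians. The dotted line is the median of all genes at −0.05 and dashed lines mark the 25% step. The linkers have the lowest median, at −0.26, and the medians of the receptor lists run from −0.02 to 0.14.

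Transcripts of 18 genes listed as known substrates of cullin ligase receptors were divided evenly, 9 above 0 and 9 below (median −0.01, 0.04 after centring). Of all genes kept, 41.0% were above 0. The list was not limited to substrates of the kept receptors, and it includes CDT1 (−0.40 ± 0.04), the substrate of DTL. The WNK kinases bound by KLHL3 and KLHL2 differed in direction, with WNK1 at 12.3 FPKM with thalidomide and 10.3 FPKM with vehicle (0.24 ± 0.03) and WNK4 at 12.1 and 13.8 FPKM (−0.17 ± 0.03). IREB2, the substrate of FBXL5, had 34.4 and 28.6 FPKM (0.26 ± 0.03), higher like its receptor. CRY2, a cryptochrome, had 21.9 and 14.3 FPKM (0.58 ± 0.04), and SMURF1 had 8.29 and 6.40 FPKM (0.33 ± 0.06). The more abundant cryptochrome CRY1 had 50.1 and 52.8 FPKM (−0.08 ± 0.03), with overlapping intervals. At the low end were JUN, a substrate of FBXW7, with 482 and 881 FPKM (−0.87 ± 0.01), and NFKBIA, a substrate of BTRC and FBXW11, with 13.7 and 18.8 FPKM (−0.43 ± 0.03). These are mRNA values and say nothing of how much substrate protein was degraded.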

How the data were processed

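The deposited tables hold gene-level FPKM values with lower and upper confidence limits, per the file headers, as the authors made them from their reads. Of software, those notes that the submitters gave on processing list Cufflinks 2.2.1 with Cuffdiff, STAR 2.4.2a and bcl2fastq, and galGal4 as the assembly, without roles; the annotation release is not given in the sources used here. Each library has its own table, and the listed software without roles does not tell how the libraries were normalized. Levels are therefore compared on the authors' scale.

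FPKM was summed over rows of one symbol (no receptor had more than 1 row); dates, bare numbers and bracketed names were not taken as symbols. Genes with at least 1 FPKM in either library were kept. Fragments were inferred by reading the distance to the upper limit as 2 SD of a count, which understates them where assignment was uncertain, giving about 23280000 in the thalidomide library and 23361600 in the vehicle library. Intervals cover counting and assignment error only, and no test is possible with 1 library per treatment. Starts were converted to count from 1.

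The members, lists, thresholds and the rule for named genes (the extreme ratios and highest levels of each family, the ends of each list and some fixed subunits) were chosen with earlier results of these data known. List genes were matched by symbol or by a synonym in the RefSeq table of GRCg7b, which held 85 of the 87 receptor symbols. The list entry KLHL9 matched the row named KLHL13. The arithmetic was checked on simulated libraries. Alternatives were another pseudocount, other filters, centring, rescaling, unsummed rows and leaving out short loci. Python 3.11.15, pandas 2.3.3 and NumPy 2.4.6 were used. Of the genes that the rule for named genes takes, 1 is not reported here.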

Additional observations from a re-analysis of the deposited data

How the results depend on the processing

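With 1 library per treatment, differences between tissue samples cannot be separated from the treatment, and receptors with few fragments, such as FBXL15, have wide intervals. No paired analysis was possible because each treatment had 1 library, and no library could be left out. Leaving rows unsummed or dropping loci under 300 bases changed none of the medians or counts of receptors, and no receptor past the 25% step changed sign under any alternative. With a pseudocount of 0.1 FPKM, 12 receptors were higher past the 25% step, against 2 as reported, and 3 were lower, beside 9.16% and 11.96% of all genes. Among receptors with a mean of 5 FPKM or more, 1 was higher past that step and 1 lower, beside 4.90% and 9.35% of all genes, and 10 were higher and 9 lower with intervals apart, beside 16.0% and 34.3%. Centring on all genes gave 10 higher and 1 lower past the 25% step, beside 8.67% and 5.71% of all genes. Rescaling to the vehicle FPKM total multiplied the thalidomide values by 1.11 and moved the median of all genes by 0.13. Medians were then 0.12 for all receptors, 0.039 for DCAF, 0.12 for KLHL, 0.16 for FBXL and 0.11 for FBXW, with 17 higher and 0 lower past the 25% step (all genes 15.04% and 2.64%), and 26 higher and 4 lower with intervals apart (all genes 32.0% and 10.3%). Rescaling without mitochondrial and haemoglobin genes moved that median by 0.16. Medians were then 0.16 for all receptors, 0.076 for DCAF, 0.16 for KLHL, 0.16 for FBXO, 0.19 for FBXL and 0.14 for FBXW, with 20 higher and 0 lower past the 25% step (all genes 18.5% and 2.07%), and 28 higher and 3 lower with intervals apart (all genes 37.5% and 7.67%). These shifts follow from the multiplication itself. The counts at 1.5-fold were 0 in both directions under every alternative.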
